A study of Mus musculus with 9 samples.

Results

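Control mouse brain tumor stem cells (BTSC), in which Gpd1 had not been targeted, were described here by the level of every gene they expressed. A gene was counted as expressed where its mean over the 3 control libraries was at least 10 normalized reads, which 15400 of the 21899 genes in the deposited table reached. The study sequenced poly(A) RNA from 9 BTSC libraries, 3 of them controls and the others cells in which Cas9 with 1 of 2 guides had been directed at Gpd1. Only the controls are used below, so no comparison between groups was made and nothing was tested. Each level is given with its spread over the libraries named control replicates 1, 2 and 3. The labels give mouse as the species, brain as the tissue and brain tumor stem cells as the cell type, without the strain, the age of the animals, the alleles or the tumor model from which the cells came. They also do not say whether the control cells passed through transfection, puromycin selection and growth from single colonies as the targeted cells did, or whether the 3 libraries came from separate cultures. The SDs therefore measure the spread between these libraries, which may be technical.

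Brain tumor stem cells are the self-renewing cells of a glioma, grown in culture and able to form tumors, and they carry many transcripts of neural stem cells and of glial precursors. Sox2 and Nes mark neural stem and progenitor cells, Olig1 and Olig2 the oligodendrocyte lineage and many gliomas, and Pdgfra and Egfr encode growth factor receptors that are often altered in glioblastoma. Gpd1, the dehydrogenase that forms glycerol-3-phosphate in the cytosol, links glycolysis to the glycerol backbone of lipids and passes electrons from NADH toward the mitochondrion, and it is the gene that the study set out to examine as a target in these cells.

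The normalized reads summed to 41393139, 42975283 and 42194829 in replicates 1, 2 and 3. The 100 genes with the highest counts held 15.1% ± 0.31 of the total (SD, n = 3) and the top 1000 held 45.8% ± 0.32. The 21 mitochondrially encoded genes with a row held 2.55% ± 0.25 and ribosomal protein genes 1.02% ± 0.035. Of the expressed genes, 12997 (84.4%) were annotated as protein coding. The 800 genes averaging 10000 or more held 41.5% of all reads, whereas the 6499 genes under the minimum of 10 held 0.0514%. A count grows with the length of a transcript, so levels of different genes are compared below only as normalized reads per kilobase, the count divided by the summed length of all annotated exons of the gene in GENCODE M21. The median expressed gene stood at 210 normalized reads per kilobase, with quartiles of 37.0 and 615, and this median is the yardstick used below. Counts of listed genes below are to be read beside the 15400 of 21899 genes expressed in the whole table. The median splits the expressed genes with an annotated length evenly.

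Of the 6 markers chosen for these cells, 5 lay far above the median gene and Pdgfra lay under it. Olig2, the basic helix-loop-helix factor of the oligodendrocyte lineage, had 36225, 38291 and 38238 normalized reads in replicates 1, 2 and 3, or 14856 ± 466 per kilobase (SD, n = 3). Gpd1 (ENSMUSG00000023019, chromosome 15, 99717515 to 99725005) had 25106, 26566 and 25836, or 8725 ± 247 per kilobase. Nes, the intermediate filament nestin, had 37297, 46053 and 44266, or 6630 ± 721 per kilobase. These 3 genes stood at percentiles 99.7, 99.4 and 99.1 of the expressed genes. Sox2, a transcription factor of neural stem cells, had 8756, 7105 and 7252, or 3745 ± 444 per kilobase, with replicate 1 above the other libraries. Egfr, the epidermal growth factor receptor, had 20115, 19168 and 19326, or 1725 ± 44.8 per kilobase. Pdgfra, the platelet-derived growth factor receptor of oligodendrocyte precursors, had 613, 420 and 436, or 48.8 ± 10.7 per kilobase. Per kilobase, the ranges of neighbours in this order did not overlap. The order from Olig2 through Gpd1, Nes, Sox2 and Egfr to Pdgfra was therefore the same in each library. It depends on the exon lengths used, and no other length was tried for it. By count, Nes stood above Olig2 and Egfr above Sox2 in each library. Of the exon bases of Gpd1, 13.0% are also exon bases of another gene, and whether the authors counted by strand is not given in the sources used here.

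Promoters of 2 abundant factors, of the most abundant marker and of the marker under the median are shown because they differ in CG dinucleotides, the sites of DNA methylation in mammals. They are the bases before the gene's start in RefSeq (build GRCm38.p6, up to 250 bases, stopping before the GENCODE M21 start where that lay further upstream), with every CG in capitals.
Olig2, chr16:91225300-91225456, plus strand: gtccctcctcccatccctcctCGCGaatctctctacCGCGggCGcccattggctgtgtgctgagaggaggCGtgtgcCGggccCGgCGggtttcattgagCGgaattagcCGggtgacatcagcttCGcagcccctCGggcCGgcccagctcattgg
Sox2, chr3:34649745-34649994, plus strand: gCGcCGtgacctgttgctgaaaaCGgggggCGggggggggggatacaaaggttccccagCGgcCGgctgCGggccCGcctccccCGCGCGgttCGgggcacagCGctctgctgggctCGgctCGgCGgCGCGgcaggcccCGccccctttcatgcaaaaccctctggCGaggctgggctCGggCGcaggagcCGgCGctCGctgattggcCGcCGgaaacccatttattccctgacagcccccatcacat
Fabp7, chr10:57784673-57784880, plus strand: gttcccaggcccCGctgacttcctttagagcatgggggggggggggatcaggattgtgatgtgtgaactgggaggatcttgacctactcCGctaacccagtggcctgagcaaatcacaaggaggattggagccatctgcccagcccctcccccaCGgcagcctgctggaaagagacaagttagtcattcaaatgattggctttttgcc
Pdgfra, chr5:75152001-75152250, plus strand: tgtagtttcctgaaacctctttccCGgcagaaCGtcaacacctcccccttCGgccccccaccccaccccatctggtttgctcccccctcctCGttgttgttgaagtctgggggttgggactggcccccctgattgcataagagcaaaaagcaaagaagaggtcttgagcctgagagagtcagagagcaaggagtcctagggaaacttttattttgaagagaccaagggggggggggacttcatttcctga
In the full window of 250 bases, CG occurred 22 times at Olig2, 27 times at Sox2, 4 times at Fabp7 and 4 times at Pdgfra. CG reads the same on both strands, so each was counted once. The median over the 27025 genes of the promoter table was 6, and 38.2% of them held at least 10. Promoters were matched by symbol for 12758 of the 21899 genes. Grouped by normalized count, the median number of CG was 5 for genes under 10, 9 for genes from 10 to 100, 14 from 100 to 1000, 18 from 1000 to 10000 and 19 for genes of 10000 and over. The share with at least 10 was 30.8%, 48.8%, 71.1%, 83.5% and 86.1% in the same order. Fabp7, with 4, lay under the median of its level class although its RNA was the most abundant per kilobase of the genes named here. These counts describe sequence only, and no methylation was measured in these libraries.

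Apart from mitochondrially encoded and ribosomal protein genes, the 20 highest levels per kilobase belonged to genes of varied function. Fabp7, the brain fatty acid binding protein of radial glia, stood first with 96772, 108412 and 89658 normalized reads, or 78625 ± 7574 per kilobase (SD, n = 3). Lgals1, the galactoside-binding lectin galectin-1, followed at 48959 ± 3576 per kilobase, and Igfbp2, a carrier of insulin-like growth factors, at 46138 ± 1303. The intermediate filament Vim was at 34564 ± 2823, Olig1 at 33921 ± 2251, the carrier Igfbp3 at 33145 ± 4344 and the stearoyl-CoA desaturase Scd2 at 29005 ± 431 per kilobase. The rest of the 20 included the chaperone Hsp90ab1 and the elongation factors Eef1a1 and Eef2, the tubulin Tubb5, the imprinted gene Mest, the brain creatine kinase Ckb and Dbi, a binding protein of acyl-CoA. Ordered by count, which favours long transcripts, Vim, Scd2 and the matrix glycoprotein Tnc led. Tnc differed most among them, with 102568 in replicate 1 against 156662 and 140592 in replicates 2 and 3. Eef1a1, Tmsb4x, Fabp5 and other genes with near-identical pseudogenes are uncertain, because the authors' counting could have split their reads between copies.

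The 28 genes listed for neural and glioma stem cells all had a row, 27 were expressed and 22 stood at or above the median gene. After Fabp7 and Vim came Ptprz1, a receptor phosphatase of radial glia, with 99138, 95468 and 95699 normalized reads (6793 ± 144 per kilobase). The SOXB1 factors were all present, Sox3 at 2664 ± 124 and Sox1 at 268 ± 3.76 per kilobase beside Sox2 at 3745. Sox9, a factor of glial fate, was at 1980 ± 87.8 and Bmi1, a Polycomb protein of stem cell renewal, at 1530 ± 28.2 per kilobase. The glial factors Nfib, Nfix and Nfia were at 1519, 1455 and 736 per kilobase. Surface proteins used to enrich glioma stem cells were divided. Itga6 was at 1006 ± 24.2 and Cd44 at 863 ± 41.4 per kilobase, whereas Prom1, which encodes CD133, had 7, 8 and 15 normalized reads and L1cam 4, 9 and 3. Fut4, an enzyme that can make the CD15 epitope, had 25, 28 and 34.

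Members of whole factor families showed which branches of each family were used. Of the 16 Sox genes with a row, 13 were expressed and 11 stood at or above the median. Sox8, of the SOXE group, was at 2689 ± 315 per kilobase beside Sox9, while Sox10, the third member and a factor of oligodendrocyte differentiation, had 50, 26 and 31 normalized reads. The Sox4 and Sox11 factors of neural progenitors were at 880 ± 85.8 and 1118 ± 67.3 per kilobase, and 54.6% of the exon bases of Sox4 are shared with another gene. All 4 Nfi genes and all 4 Id genes were expressed, with Id3, an inhibitor of basic helix-loop-helix factors downstream of Bmp signals, at 2749 ± 63.3 and Id4 at 51.1 ± 17.0 per kilobase. Of the Pou genes, the 4 Pou3f factors of neural progenitors ran from Pou3f3 at 1397 ± 33.1 down to Pou3f2 at 320 ± 25.7 per kilobase.

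Among glial lineages, most astrocyte genes were above the median gene, oligodendrocyte precursor genes were divided around it and most genes of myelinating oligodendrocytes were under it. In bulk RNA, fewer cells of a type and less RNA per cell cannot be told apart. Of 18 astrocyte genes 17 were expressed and 14 stood at or above the median. Aldoc, an aldolase of astrocytes, had 45081, 40410 and 40432 normalized reads (12864 ± 825 per kilobase), and the glutamate transporter Slc1a3 had 41096, 43373 and 41556 (4921 ± 141 per kilobase). The lipid carrier Apoe stood at 3870 ± 1140, glutamine synthetase Glul at 3272 ± 162 and the folate enzyme Aldh1l1 at 1963 ± 151 per kilobase. The water channel Aqp4 was at 157 ± 75.3 and the transporter Slc1a2 at 211 ± 70.2 per kilobase. Gfap, the filament of reactive astrocytes and radial glia, had 4827, 3348 and 3480, and the connexin gene Gjb6 was listed at 0 in all 3 libraries.

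Of 14 genes listed for oligodendrocyte precursors, 13 were expressed but 6 stood at or above the median. The 5 highest were Olig1, Olig2, the proteoglycans Bcan (3370 ± 145 per kilobase) and Ncan (3149 ± 303), and Sox8. The surface genes that define the precursor were under the median gene, with Cspg4, which encodes NG2, at 63.3 ± 7.90 per kilobase and Pdgfra at 48.8 ± 10.7. Gpr17, a receptor of cells committed to differentiate, had 453, 181 and 255 normalized reads, and Nkx2-2, a factor of oligodendrocyte differentiation, had 7, 6 and 8. Of 14 genes of myelinating oligodendrocytes, 8 were expressed and only Cnp, a membrane enzyme of the lineage, stood above the median, with 5341, 4074 and 4388 normalized reads (1264 ± 181 per kilobase). The myelin protein gene Mbp had 6, 1 and 11.

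**Figure D1:**
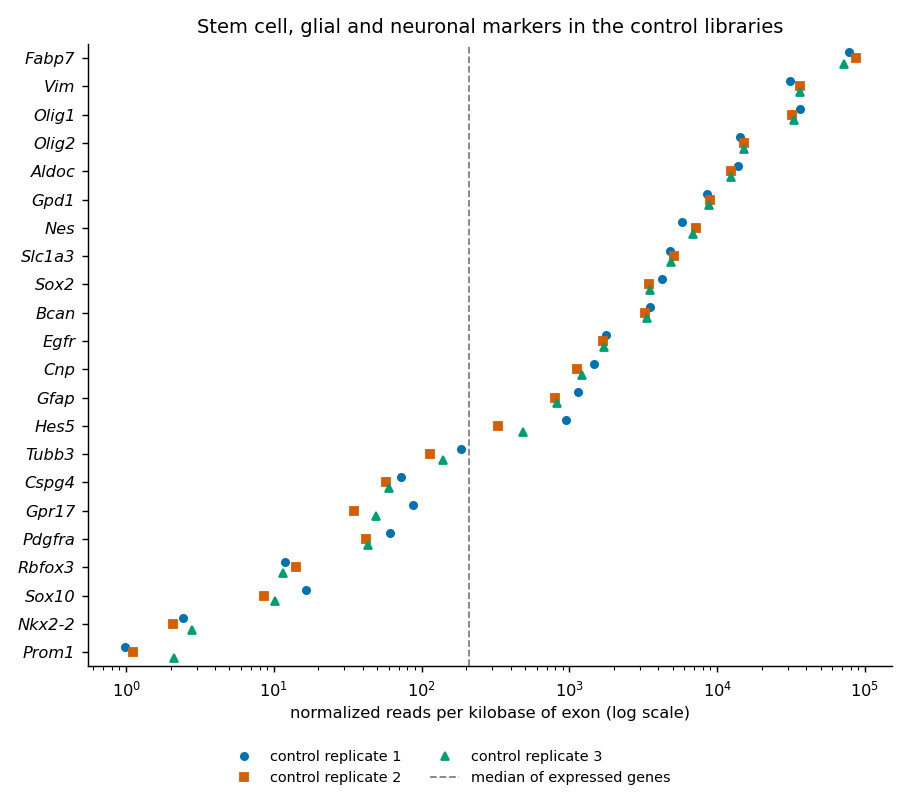
Normalized reads per kilobase of exon (log axis) for 22 stem cell, glial and neuronal markers, 1 point for each control library, with a dashed line at the median expressed gene. Olig2, at 14318 to 15135 per kilobase, lies far right of the line and Pdgfra, at 41.9 to 61.2, lies left of it in each library.

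Neuronal genes were low with a single large exception. Of 23 genes, 12 were expressed and 1 stood above the median gene. This was Map2, a microtubule-associated protein of dendrites, with 43613, 42431 and 43085 normalized reads (2617 ± 36.0 per kilobase). The next, Syn1 of synaptic vesicles, was at 184 ± 10.8 and the neuronal tubulin Tubb3 at 146 ± 35.7 per kilobase. Rbfox3, which encodes the neuronal marker NeuN, had 69, 82 and 67 normalized reads, Dcx of migrating neuroblasts 6, 5 and 4 and Snap25 of synapses 4, 3 and 1. Stmn2, Slc17a6, Nefl and 3 other genes of the list had no row in the table used here.

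Genes listed for 12 other cell types that a tumor or a culture could hold were mostly low or absent from the table used here. They held 126 names, of which 78 had a row, 39 were expressed and 6 stood at or above the median gene. In the whole table, 15400 of 21899 genes were expressed. Ptprc, the leukocyte antigen CD45, had 2, 1 and 1 normalized reads and Csf1r, the receptor of macrophages, 10, 9 and 9, while the microglial genes Cx3cr1, Itgam, C1qa and Trem2 had no row. Among endothelial genes, Pecam1 had 5, 7 and 13 and Tie1 0, 1 and 0. The 8 expressed were all under the median gene, and the highest was the Vegf receptor Flt1 with 449, 456 and 445 (33.3 ± 0.412 per kilobase), followed among receptors by Kdr with 96, 120 and 114. The mural cell receptor Pdgfrb had 4, 2 and 1 normalized reads but Rgs5 of pericytes 54, 66 and 75, and the collagen genes Col3a1 and Col1a1 had 0, 2 and 0 and 42, 27 and 37. None of the choroid plexus, erythroid or epithelial genes reached the minimum of 10, and the summed normalized reads of those lists were 15 to 20, 11 to 18 and 1 to 8 per library.

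The exceptions at or above the median did not belong to a single cell type. Foxj1, the master factor of motile cilia, had 4241, 3933 and 3870 normalized reads (1531 ± 75.7 per kilobase), and Rsph1 of the cilium's radial spokes was at 241 ± 1.68 per kilobase. Other genes of the motile cilium were low, such as the axonemal gene Dnah11 with 23, 22 and 21 normalized reads, and Tmem212, Pifo and Deup1 had no row. Acta2, smooth muscle actin, was at 1003 ± 39.4 per kilobase and the receptor gene Notch3 at 503 ± 102, while the smooth muscle genes Myh11 and Des had 24, 26 and 24 and 3, 6 and 3 normalized reads. Pmp22, a membrane protein abundant in Schwann cells, stood at 961 ± 24.6 per kilobase.

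**Figure D2:**
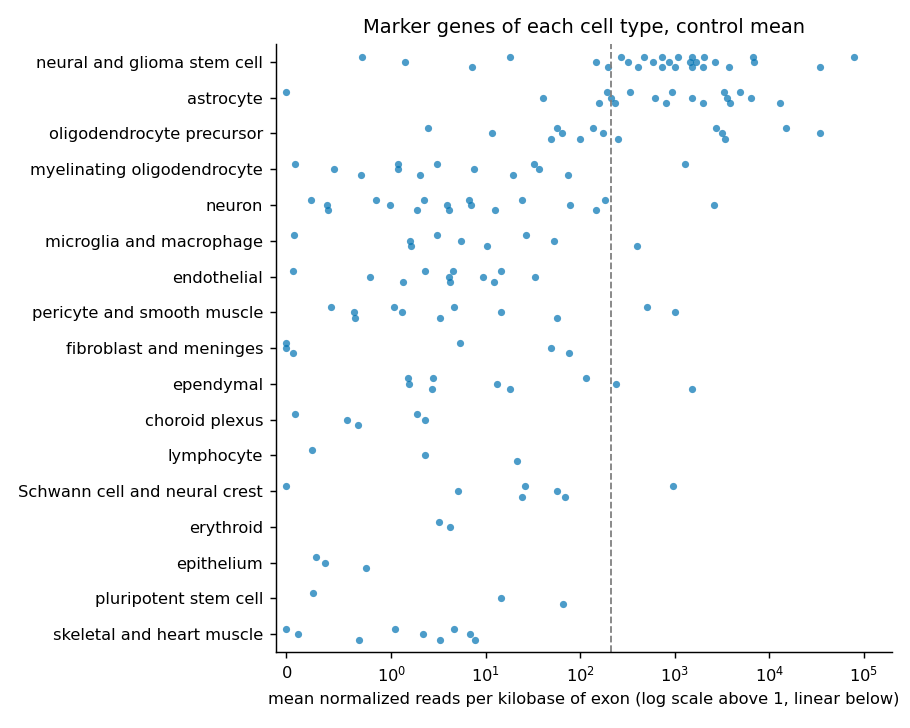
Mean normalized reads per kilobase of exon in the control libraries (log axis above 1, linear below) for each gene with a row in 17 cell type lists, 1 point per gene, with a dashed line at the median expressed gene. Stem cell and astrocyte genes lie mostly right of the line (22 of 28 and 14 of 18 genes with a row), and the lists of other cell types lie mostly left of it (6 of 78 genes with a row at or above).

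Genes that pattern the brain along its axis gave a mixed picture. Of 10 forebrain factors, 8 were expressed, with Lhx2 at 775 ± 113, Emx2 at 243 ± 21.3 and Otx1 at 149 ± 3.84 per kilobase. Otx1 had 813, 823 and 783 normalized reads, so its values lay close together in the 3 libraries. En2, a factor of the midbrain and hindbrain boundary, had 920, 1000 and 939 normalized reads (269 ± 11.8 per kilobase) and En1 was at 53.0 ± 5.38. Factors of ventral forebrain neurons were scarce, Dlx1 having 45, 62 and 47 and Dlx2 28, 30 and 31, and the hindbrain factors Zic1 and Zic4 were listed at 0 in all libraries.

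Hox genes, which pattern the hindbrain and spinal cord and are silent in the forebrain, were expressed from the Hoxa cluster. All but Hoxd9 of the 10 Hox genes with a row lie in that cluster on chromosome 6. No Hoxb or Hoxc gene had a row, so the other clusters could barely be judged. The 7 expressed genes lie in the Hoxa cluster, while Hoxa9 had 5, 4 and 5 normalized reads and Hoxa10 0, 3 and 0. Hoxa5 had 1925, 2197 and 2024 (1091 ± 73.3 per kilobase) and Hoxa4 414, 473 and 518 (294 ± 32.7). Hoxa7 was at 175 ± 5.75, Hoxa3 at 157 ± 9.94 and Hoxa6 at 114 ± 4.02 per kilobase. Exons of Hoxa3 and Hoxa7 are shared with other genes over 27.1% and 20.4% of their bases. Hoxd9 was listed at 0 in every library.

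Genes by which glioblastomas are commonly divided into subtypes were present from each list. All 10 genes of the classical list were expressed and 9 stood at or above the median gene, led by Nes, by the Notch-modifying enzyme Lfng at 5578 ± 84.6 per kilobase, and by Egfr. Of 12 proneural genes 9 were expressed and 7 stood at or above the median, with Olig2, Sox2 and Bcan first and with Dll3, Pdgfra, Nkx2-2, Erbb3 and Dcx under it. Of 14 mesenchymal genes 12 were expressed and 7 stood at or above it, with Vim, the cytokine receptor Tnfrsf1a (1940 ± 12.9 per kilobase) and Stat3 (1525 per kilobase) first. Chil1, a secreted protein often used to mark the mesenchymal class, had 11, 5 and 3 normalized reads. Several of these genes also belong to the stem cell and glial lists above, so the lists are not independent.

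Of 28 genes listed for glioma, 27 were expressed and 22 stood at or above the median gene. The list also holds Mki67, a marker of cycling cells that is counted again among the genes of the dividing cell. The cell cycle kinase Cdk4 was the highest, with 26973, 27623 and 26882 normalized reads (8359 ± 124 per kilobase). The tumor suppressors Cdkn2a, Trp53, Nf1 and Rb1 were all expressed, at 3014 ± 39.2, 1435 ± 82.1, 447 ± 9.72 and 283 ± 18.3 per kilobase. Cdkn2a, which encodes both an inhibitor of Cdk4 and the p53 activator ARF, had 3525, 3581 and 3490 normalized reads, and Cdkn2b next to it 380, 486 and 426. The p53 target genes Cdkn1a (2958 ± 187 per kilobase) and Mdm2 (853 ± 67.5) were also above the median. A gene total does not show a point mutation or a small deletion, so these values do not tell whether an allele is intact. Myc was at 1590 ± 213 per kilobase against 20.2 ± 3.75 for Mycn, and Tert, the catalytic part of telomerase, had 44, 25 and 37 normalized reads.

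Genes of the dividing cell were high throughout. All 25 listed were expressed at or above the median gene, with a median of 2447 per kilobase. Mki67, a marker of cycling cells, had 40591, 41662 and 39014 normalized reads (4018 ± 132 per kilobase), and Top2a, the topoisomerase that untangles replicated DNA, 50288, 51514 and 50416 (5630 ± 74.8). Replication genes included Mcm3 at 5843 ± 322 and Pcna at 3778 ± 174 per kilobase. The D-type cyclins were unequal, with Ccnd1 at 13169 ± 2357, Ccnd2 at 3568 ± 550 and Ccnd3 at 293 ± 7.87 per kilobase, and 23.4% of the exon bases of Ccnd1 are shared with another gene.

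Receptor tyrosine kinases, which carry signals of growth factors and matrix into the cell, differed widely in level. Of 54 names, 49 had a row, 32 were expressed and 16 stood at or above the median gene, shares close to those of all genes in the table. The highest was Ddr1, a collagen receptor, with 25127, 23694 and 23577 normalized reads (5055 ± 181 per kilobase), and its relative Ddr2 was at 1466 ± 77.0. Between them lay Egfr at 1725 ± 44.8, the Wnt co-receptor Ryk at 1640 ± 65.2 and Fgfr1 at 1630 ± 47.1 per kilobase. The ranges of Egfr and Ryk over the libraries overlapped, as did those of Ryk and Fgfr1. Fgfr3 stood at 805 ± 119 per kilobase and Fgfr2 at 93.1 ± 2.61, while Fgfr4 had 4 normalized reads in every library. Of the other Egfr relatives, Erbb2 was at 389 ± 16.6 and Erbb4 at 96.9 ± 10.2 per kilobase, and Erbb3 had 7, 5 and 3 normalized reads. Among neurotrophin receptors, Ntrk2 was at 845 ± 90.8 per kilobase and Ntrk3 at 10.3 ± 0.875. Insr, the insulin receptor, and Igf1r stood at 322 ± 26.5 and 313 ± 35.6 per kilobase, beside the abundant binding proteins Igfbp2 and Igfbp3. Met, the hepatocyte growth factor receptor, was at 46.2 ± 9.16 and Kit at 44.1, both near Pdgfra.

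**Figure D3:**
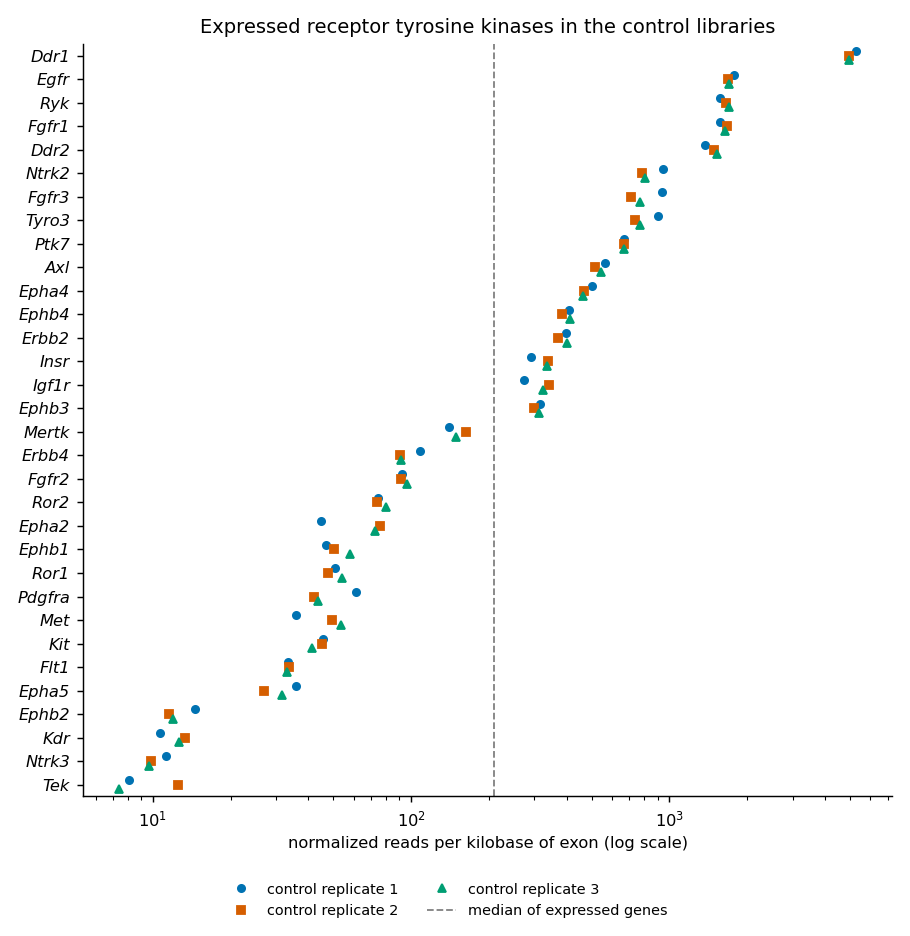
Normalized reads per kilobase of exon (log axis) for the 32 expressed receptor tyrosine kinases, 1 point per control library, with a dashed line at the median expressed gene. Ddr1 stands alone at about 5055, Egfr, Ryk and Fgfr1 lie together at 1630 to 1725, and Pdgfra lies at 48.8 among the lower 16.

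Of 38 ligand genes of these receptors, 23 were expressed and 9 stood at or above the median. Ptn, the growth factor pleiotrophin, which binds the phosphatase encoded by Ptprz1, had 50112, 45649 and 44425 normalized reads (13612 ± 872 per kilobase). Kitl, the ligand of Kit, was at 4348 ± 587 per kilobase, although Kit itself was at 44.1. Ligands of Egfr included Hbegf at 523 ± 112, Tgfa at 200 ± 21.4 and Areg at 121 ± 7.85 per kilobase, with Egf at 6.92 ± 0.539. Of the platelet-derived growth factors, Pdgfa was at 287 ± 40.4 and Pdgfc at 88.9 ± 0.818 per kilobase, and 26.1% of the exon bases of Pdgfa are shared with another gene. Gas6 and Pros1, ligands of Tyro3, Axl and Mertk, were at 628 ± 22.6 and 1375 ± 46.6 per kilobase, with Tyro3 at 803 ± 89.7 and Axl at 540 ± 26.2.

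Receptors of developmental signals were present from each pathway. The lists counted here also hold other genes of the pathways, such as ligands and target genes. For Notch, 16 of 17 names were expressed, and Notch1 stood at 1562 ± 63.3 per kilobase, Notch2 at 435 ± 16.0, the ligand gene Dll1 at 742 ± 106 and the target gene Hes1 at 725 ± 4.97. For Wnt, 17 of 18 were expressed, with Fzd10 the highest receptor at 1387 ± 151 and the target gene Axin2 at 495 ± 13.2 per kilobase. For Hedgehog, Smo was at 1310 ± 17.2 and Ptch1 at 488 ± 59.5 per kilobase, but the target gene Gli1 had 22, 13 and 5 normalized reads and the ligand gene Shh 8, 5 and 1. For Bmp and Tgf-beta, Bmpr1a stood at 1567 ± 31.3, Bmpr2 at 979 ± 25.8 and Tgfbr2 at 831 ± 67.7 per kilobase.

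Among transmitter receptors a few subunits stood out. Of 22 glutamate receptor genes, 16 were expressed and 3 stood at or above the median, Grm5, a metabotropic receptor, with 13076, 12491 and 12585 normalized reads (1241 ± 30.7 per kilobase), the kainate subunit Grik5 at 580 ± 42.7 and the AMPA subunit Gria3 at 378 ± 5.42. Grin1, which every NMDA receptor needs, had 62, 62 and 67 normalized reads. Gabrg1 was the only one of 13 GABA-A subunit genes above the median, at 658 ± 66.1 per kilobase. Of 24 receptors for lipids, chemokines and peptides, 22 were expressed and 14 stood at or above the median. The orphan receptor Gpr37l1 of astrocytes was at 6521 ± 742, the endothelin receptor Ednrb at 4699 ± 190 and the adhesion receptor Adgrg1 at 4128 ± 195 per kilobase, and the chemokine receptor Cxcr4 at 582 ± 49.8.

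The enzyme families of energy and lipid metabolism were each led by 1 or a few isoforms. Shares below are of the family's summed normalized reads per kilobase. Of 28 families with at least 2 expressed members, 20 had a member with more than 50% of the family. In the glycerol-3-phosphate dehydrogenases, Gpd1 held 77.5% ± 0.66 (SD, n = 3), the mitochondrial Gpd2 13.5% ± 0.15 and Gpd1l, the cytosolic relative, 8.95% ± 0.51. Gpd2 (chromosome 2, 57237635 to 57370719) had 9913, 10089 and 9954 normalized reads and Gpd1l (chromosome 9, 114899341 to 114933987) 5337, 4983 and 5017. All 3 genes lay above the median gene, at 8725, 1525 and 1007 per kilobase, and their ranges did not overlap. Genes that use glycerol-3-phosphate to make lipids were led by the acyltransferases Gpat4 at 981 ± 22.8 and Gpam at 966 ± 78.9 per kilobase, which did not differ beyond their spread. The glycerol kinase Gk, which makes glycerol-3-phosphate from glycerol, was at 162 ± 9.23 per kilobase.

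In glycolysis, Pfkm held 70.7% ± 0.68 of the phosphofructokinases, Pfkl 21.2% ± 0.83 and Pfkp 8.16% ± 1.39. With lengths taken from protein-coding transcripts, Pfkm held 50.3%. Hk1 and Hk2, the first enzymes of glucose use, held 52.2% ± 2.16 and 44.5% ± 2.25 of the hexokinases, with Hk1 ahead in each library. With those other lengths Hk1 held 78.9%. Aldoc held 62.8% ± 1.55 of the aldolases and Aldoa 37.2% ± 1.55. With them Aldoc held 46.9% and Aldoa led. Ldha, which favours lactate formation, held 76.5% ± 0.77 of the lactate dehydrogenases and Ldhb 23.4% ± 0.76. Slc2a1 held 63.0% ± 0.49 of the glucose transporters and Slc2a3 18.9% ± 1.19. Pdk3 held 72.7% ± 3.30 of the pyruvate dehydrogenase kinases and Pdk1, a target of hypoxia signalling, 7.05% ± 0.87. The pyruvate kinase gene Pkm had 50408, 50821 and 49854 normalized reads, and its splice forms cannot be told apart in a gene total. Pgk1, Pgam1, Eno1 and Ldha have near-identical copies in the genome, and their levels are uncertain for that reason.

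Around the citrate cycle, Idh1, the cytosolic isocitrate dehydrogenase often mutated in human glioma, was the highest of 5 isocitrate dehydrogenase genes with 17504, 16788 and 16125 normalized reads (38.4% ± 0.99 of the family), and the mitochondrial Idh2 held 22.4% ± 0.67. Glul, which makes glutamine, was at 3272 per kilobase and held 54.5% ± 0.50 of the glutamine and glutamate enzymes. Pcx, pyruvate carboxylase, was at 412 ± 37.5 per kilobase. Ckb held 99.9% ± 0.0081 of the creatine kinases.

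Some lipid synthesis genes were among the most abundant, and others were low. Of 7 acetyl-CoA enzyme genes, 6 were expressed and 4 stood at or above the median gene. Of 13 desaturase and elongase genes, 12 were expressed and 9 stood at or above it. Acaca held 2.53% of the acetyl-CoA enzymes, and Acss3 and Scd3 were under the minimum of 10. Scd2 had 161201, 157228 and 157025 normalized reads and held 61.8% ± 0.50 of 13 desaturase and elongase genes, and Scd1 held 8.22% ± 0.33. With lengths taken from protein-coding transcripts, Scd2 held 42.3%. The citrate lyase Acly and the fatty acid synthase Fasn stood at 4579 ± 142 and 3789 ± 105 per kilobase, and Acsbg1 held 59.9% ± 1.04 of the long-chain acyl-CoA synthetases. Fabp7 held 98.5% ± 0.098 of the fatty acid binding proteins. All 16 cholesterol synthesis genes were expressed and 14 stood at or above the median, led by Hmgcs1 with 53796, 53359 and 52664 normalized reads (11596 ± 124 per kilobase). All 11 serine and folate enzymes were expressed, with the serine-pathway aminotransferase Psat1 at 7275 ± 401 per kilobase and Phgdh, the first enzyme of that pathway, at 1725 ± 38.8.

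**Figure D4:**
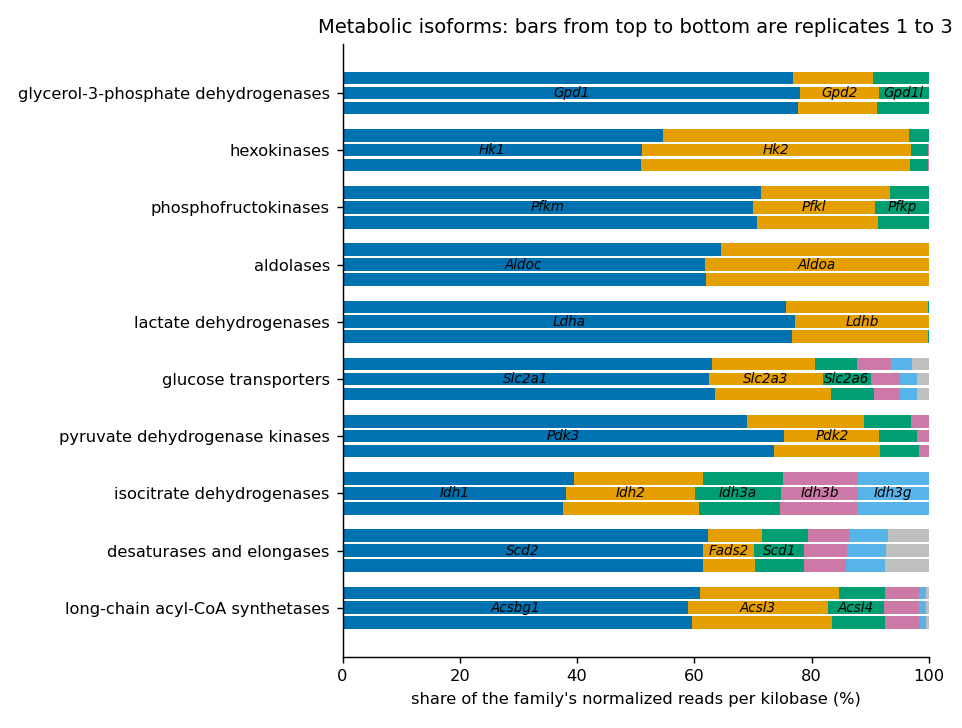
Share of each gene in its family's summed normalized reads per kilobase (percent, from 0 to 100) for 10 metabolic families, with 1 bar for each control library and names on the segments over 7.5%. Gpd1 fills 76.8% to 78.1% of its family and Scd2 61.4% to 62.3%, and the 3 bars of a family look alike throughout.

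The 3 control libraries were close to each other, and replicate 1 stood slightly apart. The median SD of log2(normalized count + 1) was 0.0836 over the expressed genes, and 90% of genes had an SD under 0.316. Across genes, r of the log2 values was 0.9955 between replicates 1 and 2, 0.9959 between 1 and 3 and 0.9967 between 2 and 3, where the points are genes and not independent replicates. The median of the squared difference of 2 libraries over the variance that counting gives was 2.06, 1.59 and 0.907 for the same pairs, against 0.455 from counting alone. All 3 values exceeded that of counting, and each library was counted as 1 sample. A library was counted as apart where its log2(normalized count + 1) differed from the mean of the other libraries by at least 1.5-fold. Among the 11489 genes that averaged 100 or more, replicate 1 lay so far above for 53 genes and below for 32. Replicate 2 did so for 6 and 21, and replicate 3 for 1 and 1.

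Replicate 1 stood highest in most of the listed glial genes. The lead of replicate 1 is its log2(normalized count + 1) minus the mean of the other libraries. Of 17 expressed astrocyte genes it was above both others in 14, with a median lead of 0.35, and of 13 oligodendrocyte precursor genes in 11, with a median lead of 0.27. It was above both others in 33.5% of all expressed genes, and their median lead was -0.01. Among genes averaging 100 or more, Hes5, a target of Notch signalling, had the largest SD, with 1289, 450 and 657 normalized reads and a lead of 1.24, and 31.8% of its exon bases are shared with another gene. Aqp4 had 1517, 670 and 742, and Gpr17 had 453, 181 and 255, so replicate 1 was high and the other libraries lay closer together. The calcium-binding protein gene S100b had 412, 201 and 230, and Ndrg2, of mature astrocytes, 1171, 501 and 678. Apoe, at 11072 against 6613 and 7134, and Slc1a2, at 3821 against 2122 and 2352, showed the same order, but Olig2 and Slc1a3 did not, with leads of -0.08 and -0.05. The 10 largest leads among those genes also included Ppp2r2b, a phosphatase subunit, with 373, 168 and 174, and Draxin, an axon guidance gene, with 537, 225 and 277. The Notch list had a median lead of 0.23, and 10 of its 16 expressed genes were highest in replicate 1.

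Proliferation, cholesterol synthesis and immediate-early genes lay mostly lower in replicate 1. It was below both other libraries in 18 of 25 proliferation genes (median lead -0.10), 11 of 16 cholesterol synthesis genes (-0.09) and 12 of 20 immediate-early genes (-0.20), against 40.8% of all expressed genes. With quantile normalization, added after seeing the data, these median leads were -0.05, -0.05 and -0.21. Dusp6, a feedback phosphatase of MAP kinase signalling, had 11128 normalized reads against 17640 and 16322, and Ccnd1 had 49394 against 70271 and 66375. The secreted thrombospondin gene Thbs1 had 96 against 207 and 195, and the chemokine gene Ccl2 286 against 591 and 437. Mki67, at 40591 against 41662 and 39014, lay between the other libraries. Of 21 mitochondrially encoded genes with a row, 18 were expressed, 7 of them protein coding, and genes without a row could not be judged. The 7 protein-coding genes did not follow this pattern. Their median lead was 0.01 in replicate 1, 0.23 in replicate 2 and -0.26 in replicate 3. In the fifth of genes with the shortest exon length the median leads were -0.00, 0.04 and -0.03. The labels name no batch, and the part of proliferation in the glial pattern was not tested.

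**Figure D5:**
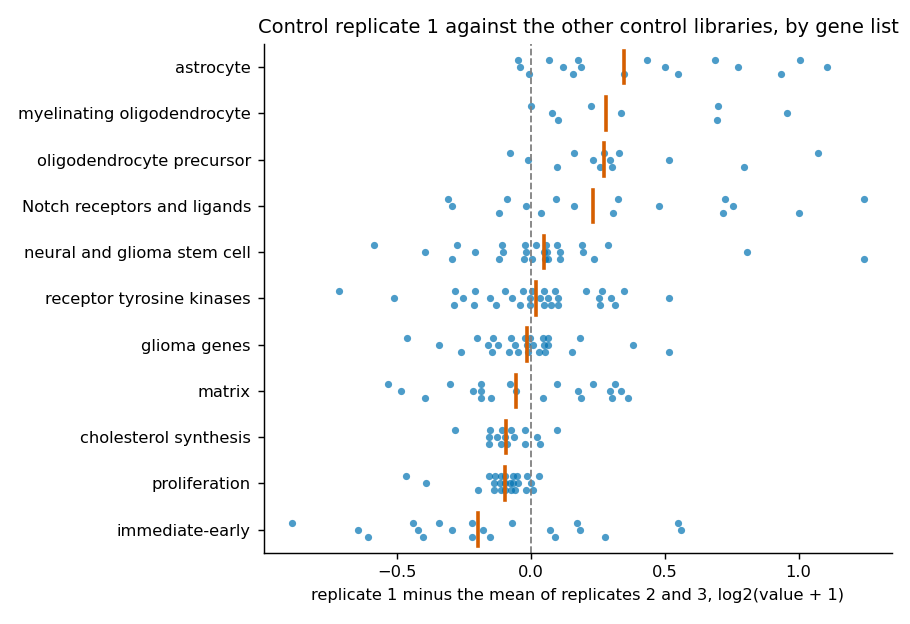
Difference of control replicate 1 from the mean of replicates 2 and 3 in log2(normalized count + 1), 1 point for each expressed gene of 11 lists, with an orange bar at the list's median and a dashed line at 0. The astrocyte list has its median at 0.35 and the immediate-early list at -0.20, with single genes from Hes5 at 1.24 downward.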

How the data were processed

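Poly(A) RNA of 3 control BTSC libraries was described from the deposited table. The submitters' processing notes name the aligner STAR (2.4.1d), the counter featureCounts, the package DESeq2 and the mouse build mm10. No annotation release or strand setting is given in the sources used here. The authors deposited 1 score per gene and library, whole numbers whose steps show read counts multiplied by 1 factor per library (0.9366, 0.9744 and 1.093) and rounded. They are called normalized reads or counts here.

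Exon lengths and overlaps came from GENCODE M21 (GRCm38), which matched 21817 of 21899 genes, and promoters from RefSeq. A mean of at least 10 made a gene expressed, and log2 values used a pseudocount of 1. Each of 73 gene lists was described by counts and medians. List members could be named, with the 20 highest genes per kilobase and by count, the Sox, Nfi, Pou, Hox and Id families, and the 10 most variable genes overall and per library at a mean of at least 100. A few listed genes are not reported here. Members and lists were chosen with earlier results of these data known. One group gives no comparison, so no test was made. The ratio of variance to mean, the lead and the median-of-ratios scaling were checked on simulated data. The log2 SD and the squared differences between library pairs were not. Alternatives were other minimums, lengths, scalings and pseudocounts, and each library left out. Python 3.11.15, numpy 2.4.6, pandas 2.3.3, scipy 1.17.1 and matplotlib 3.10.9 were used.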

Additional observations from a re-analysis of the deposited data

How the results depend on the processing

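Of 45 alternative values for the results that sum up the profile, 39 stayed within their spread or within 1.5 times the count reported. Among the alternative values for single shares and leads, 45 stayed so and 24 moved. All that moved were isoform shares. Those of Gpd1, Pfkm, Aldoc, Ldha, Hk1, Fabp7, Idh1 and Scd2 left their spread with each other length and with no length scaling. Expressed genes numbered 17059 at a minimum mean of 5, 13943 at 20, 14810 with at least 10 in each library, and 15404 to 15421 with 1 library left out. The share of the top 100 genes was 13.4% without mitochondrially encoded genes. The median log2 SD was 0.132 with no filter and 0.0647 at a mean of at least 100, and ran from 0.0518 (without replicate 1) to 0.0820 with 1 library left out. The median ratio of variance to mean was 2.07 with all libraries and 0.937 (without replicate 1) to 1.97 with 1 left out, where counting alone gives 0.693 for 3 libraries and 0.455 for 2. Markers of other cell types that were expressed numbered 23 at a minimum of 50. With lengths taken as the mean of protein-coding transcripts, the leader changed in 4 of 28 families, from Aldoc to Aldoa, Mdh1 to Mdh2, Cox8a to Cox6b1 and Slc25a4 to Slc25a5, and with no length scaling in 3. Without 1 library the leader changed in 1 family, from Slc25a4 to Slc25a5 (without replicate 1) or from Gpat4 to Gpam (without replicate 2 or 3). With no length scaling, the share of Gpd1 in its family was 63.1% and that of Pfkm 48.5%. The kinases at or above the median numbered 15 to 18 over the alternatives. Other scalings and a pseudocount of 5, added after seeing the data, kept the sign of all 7 median leads of replicate 1 and gave 86 and 91 genes that stood apart in it, against 85. No paired analysis was possible because only 1 group was used and no test was made. Low counts limit genes under about 100 normalized reads, whose median SD was 0.257.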

Other observations

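Imprinted and long noncoding genes were unevenly expressed in the control libraries. Mest, an imprinted gene of embryonic growth, stood at 22413 ± 2327 normalized reads per kilobase (SD, n = 3), and Nnat, the imprinted neuronatin gene, had 5076, 4173 and 4315 normalized reads. Peg10 had 9348 in replicate 1 against 13790 and 12667 in the others. H19 had 143, 58 and 59 and Igf2 40, 20 and 22, while Meg3 and Dlk1 had no row in the table used here. For Mest and Igf2, 23.1% and 64.5% of exon bases are shared with another gene. Xist, the RNA that coats the inactive X chromosome, had 62874, 57361 and 59171 normalized reads, and the Y-linked genes Ddx3y, Uty, Kdm5d and Eif2s3y had no row.

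Stress and interferon genes were less uniform than those of growth. Of 14 interferon-induced genes 13 were expressed and 2 stood at or above the median gene, Ifi27 at 596 ± 41.0 and Ifit2 at 572 ± 11.6 per kilobase, whereas Mx1 had 3, 0 and 2 normalized reads. Of 15 hypoxia-induced genes 12 were expressed and 8 stood at or above it, with Adm, which encodes adrenomedullin, at 1344 ± 111 and Vegfa at 337 ± 54.0 per kilobase. Pfkfb4 had 8 normalized reads in every library and Ndrg1 26, 23 and 23. Of 14 amino acid stress genes 13 were expressed, with the factor Atf4 at 3386 ± 215 and asparagine synthetase Asns at 1198 ± 43.0 per kilobase, against 68.1 ± 1.51 for Trib3 and 36.7 ± 6.38 for Chac1.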
